A study of Rattus norvegicus with 20 samples.

Results

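The genes described here are Txnip, Arrdc4 and a set of genes tied to the glucose-responsive transcription factor ChREBP. The set was given by name as 8 symbols: the alpha-arrestins Txnip and Arrdc4, the transcription factors Mlxipl, Mlx and Mlxip, and the metabolic enzymes Pklr, Gpd1 and Khk. A gene entered when the array annotation held a probe set with exactly 1 symbol for it, which was so for 7 of the 8, of 18166 genes in all. Mlxipl, which encodes ChREBP itself, had no such probe set and was not analysed here.

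The cells were INS-1, which come from a rat insulinoma, secrete insulin and stand in for beta cells in culture. RNA from 20 wells was hybridised to 20 arrays (Affymetrix Rat Gene 2.0), with 5 under each of the titles C4BP, C4BPD, IAPP and DMSO. The design text lists islet amyloid polypeptide (IAPP, a beta-cell peptide hormone that forms amyloid) at 77 uM, alone or with the complement inhibitor C4b-binding protein (C4BP) at 0.6 uM, and as controls the solvent DMSO at 1% and C4BP alone. The sample labels give the doses by mass, as 300 ug/ml of each. RNA was taken after 10 h. The titles C4BP and C4BPD are not explained in the labels. They are read here as C4BP given with IAPP and C4BP given without IAPP, which is likely from the 4 conditions of the design but not stated. Another label, the treatment field, repeats the title's word for only 2 of the 10 wells titled IAPP or DMSO. Every group below is a title group. All wells held cells of the same line, grown as 5 clones. Each title opens with a number from 1 to 20 and ends with a replicate number from 1 to 5, called the title number here. Within each title number the opening numbers follow the order IAPP, C4BP, C4BPD and DMSO. The labels do not say what the opening number stands for, so group and place in that order cannot be told apart. The labels do not say that the title number is the clone, so the p-values measure the spread between these wells, which may be technical. Whether C4BPD wells also held DMSO is not given in the labels.

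ChREBP and its relative MondoA, the product of Mlxip, are transcription factors that sense glucose metabolites and bind DNA as dimers with the protein Mlx. Their best known site is the carbohydrate response element, a pair of E-box-like sites a few bases apart. In beta cells Txnip, Arrdc4 and Pklr are among the genes that such dimers turn on when glucose is high. The TXNIP protein binds thioredoxin and restrains its reducing activity, and both TXNIP and ARRDC4 lower glucose uptake. Pklr encodes the pyruvate kinase of liver and red cells, which catalyses the last step of glycolysis. Gpd1 encodes the cytosolic glycerol-3-phosphate dehydrogenase, and Khk encodes ketohexokinase, which phosphorylates fructose.

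Promoter sequences from RefSeq (build GRCr8) were given for 6 of the 8 genes, from 250 bases before to 50 bases after the start, and not for Txnip and Gpd1. The windows of Pklr and Arrdc4 are printed because they are the 2 genes with lower calls in C4BP vs DMSO. In Pklr, chr2:176841014-176841313 on the plus strand, the capitals mark a carbohydrate response element. In Arrdc4, chr1:131793376-131793675 on the minus strand, they mark an E-box and 6 CCAAT boxes, some of them on the opposite strand as ATTGG.
Pklr: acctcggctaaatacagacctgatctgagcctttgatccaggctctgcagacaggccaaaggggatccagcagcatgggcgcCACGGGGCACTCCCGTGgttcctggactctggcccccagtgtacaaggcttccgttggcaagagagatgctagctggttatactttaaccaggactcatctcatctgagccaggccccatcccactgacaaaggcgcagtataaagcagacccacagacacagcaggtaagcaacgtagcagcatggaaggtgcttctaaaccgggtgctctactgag
Arrdc4: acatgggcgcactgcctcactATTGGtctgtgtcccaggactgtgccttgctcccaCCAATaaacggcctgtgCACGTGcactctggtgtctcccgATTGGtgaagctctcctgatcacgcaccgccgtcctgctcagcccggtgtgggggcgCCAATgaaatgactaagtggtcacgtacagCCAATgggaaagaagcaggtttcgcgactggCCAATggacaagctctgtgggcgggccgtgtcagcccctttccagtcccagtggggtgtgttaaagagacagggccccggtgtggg
The element was searched as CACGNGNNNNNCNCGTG on both strands, and the Pklr site, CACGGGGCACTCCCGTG, begins at position -168 from the start. Of 33469 RefSeq promoters of the same length, 11 (0.0329%) hold these letters, and of the 6 genes only Pklr did. The spellings used here were settled after the promoters were read, so the shares describe the letters and carry no test. A looser spelling, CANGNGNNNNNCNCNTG, found the same Pklr site and is held by 0.562% of promoters. A direct repeat, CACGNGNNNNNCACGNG, was found in none of the 6 genes and in 0.0359% of promoters. The E-box CACGTG lay in the Arrdc4 window at -177 and in the Mlx window at -70, and in 6.42% of all promoters. CCAAT was found at 6 positions in Arrdc4, 3 in Mlx, 2 in Mlxipl, 1 each in Mlxip and Khk and 0 in Pklr. It is held by 37.5% of promoters, and at 6 or more positions by 0.0418%. The cutoff of 6 equals the number seen in Arrdc4, so that share is a description and no test. None of the capital stretches overlap. A match says only that the letters are there.

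Array medians ran from 170 to 182 intensity units, and the correlation between arrays, over log2 values of all non-control probe sets, was 0.985 to 0.996. The number of arrays limits the precision. Of the 8 beta-cell markers measured, 6 (Ins1, Ins2, Iapp, Slc30a8, Slc2a2 and Chga) were brighter than at least 96.7% of genes, with Ins1 at 5411 to 7290.4, Iapp at 10360 to 12408 and Chga at 11445 to 12257. Mafa was at 924 to 1337 and Nkx6-1 at 379.9 to 538. Of the 2 alpha-cell markers, glucagon (Gcg) was bright, at 9160.4 to 10620, and Irx2 was dim, at 153 to 209. The markers of delta, PP, acinar, fibroblast, leukocyte and endothelial cells stayed between 35.9 and 272. Of the 3 duct markers, Krt7 was at 756 to 1066, Krt19 at 85.7 to 132 and Sox9 at 121 to 164. In bulk RNA, a change in the make-up of the cells and a change in RNA per cell cannot be told apart.

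Across the 4 groups, 3 of the 7 genes (Txnip, Arrdc4 and Pklr) passed the moderated F test of limma (adjusted p of 0.0289, 0.00012 and 0.00655), against 7.85% of all genes. The threshold throughout was an adjusted p of 0.05. Arrdc4 was lower in the wells titled IAPP and C4BP than in those titled C4BPD and DMSO. Pklr was lower in C4BP than in DMSO and C4BPD wells. Txnip was lower in C4BP than in IAPP wells, near the threshold. Mlx, Mlxip, Gpd1 and Khk passed in no pairwise comparison. The 3 comparisons with DMSO share the same 5 DMSO arrays.

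**Figure D1:**
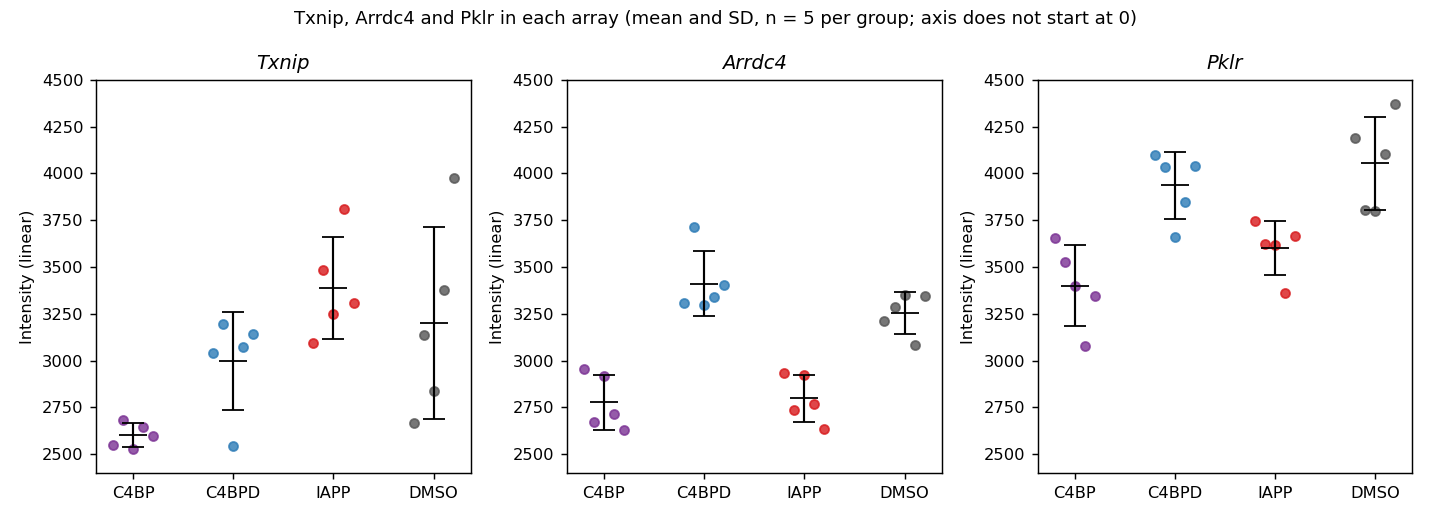
Intensity of Txnip, Arrdc4 and Pklr on each of the 20 arrays, by title group, with points for arrays, the long bar for the mean and whiskers for the SD (n = 5). Arrdc4 in C4BP and IAPP wells lies between 2630.3 and 2954, below all C4BPD and DMSO wells, and Txnip in C4BP wells lies in a narrow band from 2529 to 2680.5.

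Of the arrestins, Txnip (probe set 17741001) had intensities of 2547, 2680.5, 2529, 2645 and 2599.7 in C4BP wells, 3041, 3198, 2545, 3074 and 3141 in C4BPD wells, 3095, 3485, 3251, 3808 and 3307 in IAPP wells, and 2667, 3137, 2835, 3379 and 3974 in DMSO wells. The C4BP wells were the lowest group and the most alike, and the DMSO wells were the most spread. Txnip averaged 2600.2 ± 63.8 in C4BP, 2999.8 ± 261 in C4BPD, 3389 ± 273 in IAPP and 3198 ± 513 in DMSO (SD, n = 5 each). The order of the means was IAPP, DMSO, C4BPD and C4BP, and no neighbours in that order passed the test.

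In C4BP vs IAPP, which asks what C4BP does when IAPP is present, Txnip fell by 0.38 ± 0.09 on the log2 scale (SE), or fell by 23.1%, at an adjusted p of 0.0426 (limma, Benjamini-Hochberg over all genes). All 5 C4BP wells lay below all 5 IAPP wells, which was so for 0.903% of all genes. Txnip was the 1 gene of the 7 to pass there, against 0.231% of all genes that passed as lower. The call is fragile: it held without IAPP 1 (adjusted p = 0.0496) and was lost without IAPP 2, 3, 4 or 5 or any single C4BP well (adjusted p from 0.0672 to 0.137). It was also lost with quantile normalization (adjusted p = 0.0582), while the difference stayed between -0.41 and -0.34 over the fits without 1 array.

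Against DMSO, Txnip in C4BP wells differed by -0.28 on the log2 scale (95% interval -0.46 to -0.11) with an adjusted p of 0.0535. The groups overlapped, since DMSO 1 at 2667 lay below C4BP 2 at 2680.5. Without DMSO 1 the adjusted p was 0.0145 and without DMSO 3 it was 0.0376, whereas the other 8 fits without 1 array did not pass (up to 0.151 without DMSO 5, at -0.20). It passed with centred arrays (0.0353), with dim genes left out (0.0256) and with the title number as a block (0.0143). Txnip differed by 0.09 in IAPP vs DMSO (-0.08 to 0.27) and by -0.08 in C4BPD vs DMSO (-0.26 to 0.09), and neither passed. Both values moved with DMSO 1 and DMSO 5. In IAPP vs DMSO the difference was 0.03 without DMSO 1 and 0.18 without DMSO 5, and in C4BPD vs DMSO it was -0.14 without DMSO 1 and -0.001 without DMSO 5. In C4BP vs C4BPD it was at -0.20 (-0.38 to -0.02, adjusted p = 0.289), and in C4BPD vs IAPP at -0.18 (-0.36 to 0.00057, adjusted p = 0.277).

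Arrdc4 (probe set 17633894) had intensities of 2954, 2671, 2916, 2715 and 2630.3 in C4BP wells, 3306, 3711, 3296, 3342 and 3403 in C4BPD wells, 2931, 2739, 2922, 2766 and 2636 in IAPP wells, and 3209.9, 3285, 3353, 3083 and 3342 in DMSO wells. The wells titled C4BP and IAPP formed a low set and the wells titled C4BPD and DMSO a high set, with no overlap between any low and any high group. Arrdc4 averaged 2777 ± 148 in C4BP, 3412 ± 173 in C4BPD, 2799 ± 126 in IAPP and 3255 ± 111 in DMSO (SD, n = 5 each).

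If the titles mean what they were read to mean, the low set is the wells given IAPP. In IAPP vs DMSO, Arrdc4 fell by 0.22 ± 0.05 on the log2 scale (fell by 14.0%, adjusted p = 0.00734), the 1 gene of the 7 to pass, against 1.97% of all genes that passed as lower. In C4BP vs C4BPD it fell by 0.30 ± 0.05 (fell by 18.6%, adjusted p = 0.000553). In C4BP vs DMSO it fell by 0.23 ± 0.05 (fell by 14.7%, adjusted p = 0.00274). These 3 calls held in each fit that left out 1 array, with adjusted p up to 0.0254, 0.00261 and 0.0105.

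In C4BPD vs IAPP, Arrdc4 rose by 0.29 ± 0.05 (21.9%, adjusted p = 0.000421), the 1 gene of the 7 to pass there, against 3.64% of all genes that passed as higher. In that comparison all same-numbered wells deviated together. With the title number as a block, 1 of the 7 genes passed and the number of all genes past the threshold was 1908, in place of 992. Within the low set and within the high set Arrdc4 did not pass: C4BP vs IAPP gave -0.01 (95% interval -0.11 to 0.08) and C4BPD vs DMSO gave 0.07 (-0.03 to 0.16). Of all genes, 2.69% lay wholly lower in IAPP vs DMSO, 3.28% in C4BP vs DMSO and 2.37% in C4BP vs C4BPD, and 4.25% lay wholly higher in C4BPD vs IAPP. The Arrdc4 means ran from C4BPD through DMSO and IAPP to C4BP, and of the neighbours in that order IAPP and DMSO passed the test.

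Of the cell type markers, Gcg moved with Arrdc4 in IAPP vs DMSO, where it fell by 0.13 (adjusted p = 0.0195), and in C4BPD vs IAPP, where it rose by 0.11 (adjusted p = 0.0456). It was 1 of the 2 alpha-cell markers measured, and their summed intensity was 9947 to 10519 in C4BP, 10005 to 10474 in C4BPD, 9339 to 9756 in IAPP and 10122 to 10796 in DMSO wells. Its part in the Arrdc4 result was not tested. Of the 8 beta-cell markers measured, Slc2a2 fell by 0.11 and Mafa fell by 0.26 in IAPP vs DMSO. In C4BP vs DMSO Slc2a2 fell by 0.14, Mafa fell by 0.25 and Slc30a8 fell by 0.17, and in C4BP vs C4BPD Slc2a2 fell by 0.12. The summed intensity of the 8 was 48494 to 52549 in C4BP, 51875 to 55725 in C4BPD, 49098 to 52032 in IAPP and 51902 to 55680 in DMSO wells. Their part in the results on Arrdc4 and Pklr was likewise not tested.

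Txnip and Arrdc4 did not share 1 pattern across the wells. The log2 value of Txnip minus that of Arrdc4 in the same array, a difference that no scaling of whole arrays can move, was -0.09 ± 0.11 in C4BP, -0.19 ± 0.11 in C4BPD, 0.27 ± 0.15 in IAPP and -0.04 ± 0.23 in DMSO wells (SD, n = 5 each). Its lowest value in IAPP wells, 0.08, lay above the highest in C4BP wells, 0.005, and above the highest in C4BPD wells, -0.12. The IAPP and DMSO wells overlapped. This difference was formed after the values were seen and is given as a description, with no test.

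**Figure D2:**
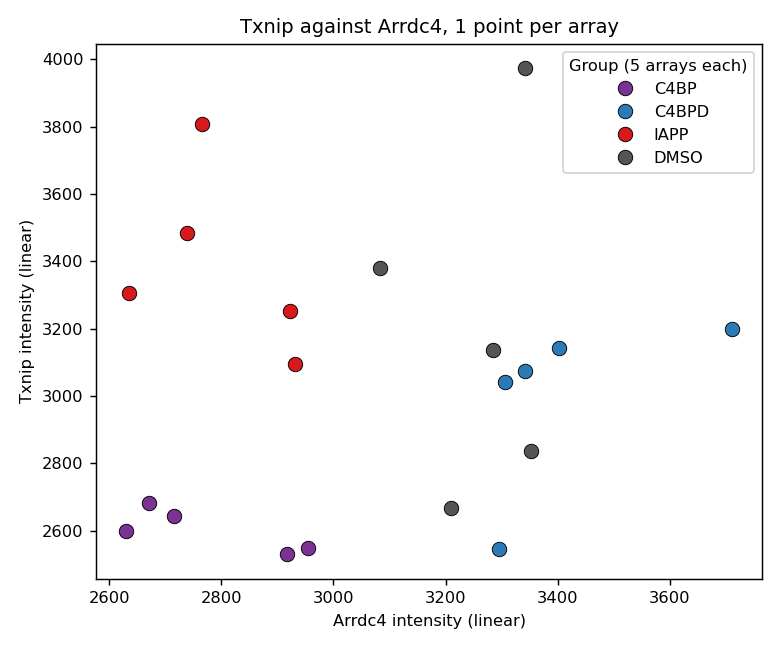
Txnip intensity (vertical axis) against Arrdc4 intensity (horizontal axis), with 1 point per array coloured by title group. C4BP and IAPP wells share the same range of Arrdc4, from 2630.3 to 2954, but lie apart on the Txnip axis, at 2529 to 2680.5 in C4BP and 3095 to 3808 in IAPP.

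Pklr (probe set 17739986), the gene with the carbohydrate response element printed above, had intensities of 3656, 3525, 3400.3, 3078 and 3343 in C4BP wells, 4095, 4037, 3659.8, 3848 and 4039.9 in C4BPD wells, 3745, 3622, 3616, 3362 and 3666 in IAPP wells, and 4191, 3806, 3799, 4105 and 4369.7 in DMSO wells. The C4BP wells lay wholly below the C4BPD and DMSO wells, and the IAPP wells lay wholly below the DMSO wells. Pklr averaged 3400.45 ± 217 in C4BP, 3936 ± 181 in C4BPD, 3602 ± 144 in IAPP and 4054 ± 249 in DMSO (SD, n = 5 each), so that the order of its means was DMSO, C4BPD, IAPP and C4BP.

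In C4BP vs DMSO, Pklr fell by 0.25 ± 0.05 on the log2 scale (fell by 16.1%, adjusted p = 0.00326). It was with Arrdc4 1 of 2 genes of the 7 past the threshold, against 3.23% of all genes that passed as lower, and the call held without any single array (adjusted p up to 0.0134). In C4BP vs C4BPD it fell by 0.21 ± 0.05 (fell by 13.7%, adjusted p = 0.0263), again with Arrdc4 as the other of 2 genes, against 1.62% of all genes that passed as lower. That call was lost without C4BPD 1, 2 or 5 or C4BP 4 or 5 (adjusted p from 0.0612 to 0.0838), with centred arrays (0.0740) and in a fit of the 2 groups alone (0.103). In IAPP vs DMSO the difference was -0.17 (95% interval -0.28 to -0.06) with an adjusted p of 0.0831. With dim genes left out before the fit, which lowers the number of genes tested, that adjusted p was 0.0389. With the title number as a block it was 0.0228. The neighbours in the order of means did not pass, at -0.04 for C4BPD vs DMSO, 0.13 for C4BPD vs IAPP and -0.08 for C4BP vs IAPP.

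**Figure D3:**
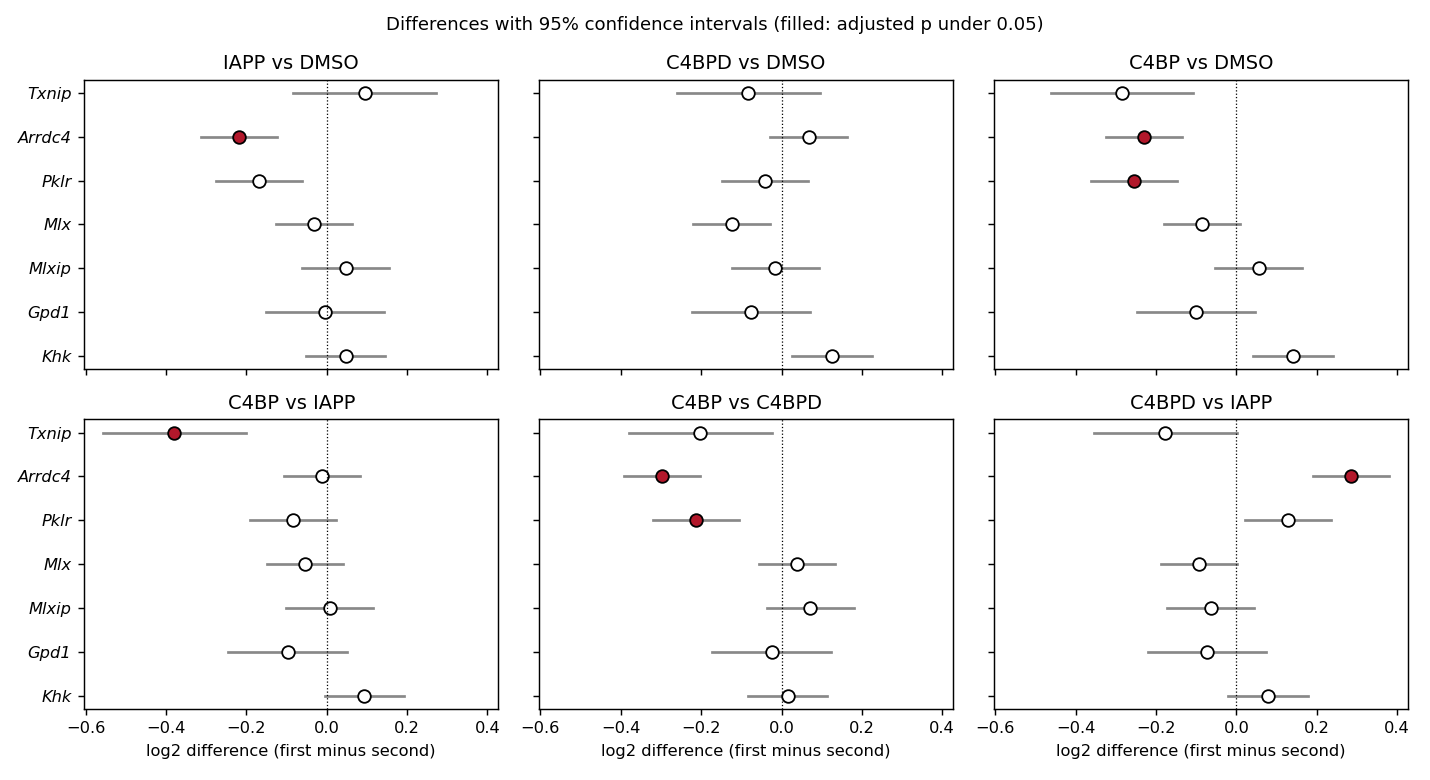
Log2 differences of the 7 genes in the 6 pairwise comparisons, the first-named group minus the second, with points for the fitted difference and lines for the 95% confidence interval. Filled points passed at an adjusted p under 0.05: Arrdc4 in 4 comparisons, Pklr in 2 and Txnip in 1.

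The other enzymes did not pass. Gpd1 (probe set 17832266) averaged 3947 ± 423 in C4BP, 4008 ± 335 in C4BPD, 4207 ± 197 in IAPP and 4225 ± 327 in DMSO wells (SD, n = 5 each). The differences ranged from -0.10 in C4BP vs DMSO (95% interval -0.25 to 0.05) to -0.004 in IAPP vs DMSO (-0.15 to 0.14), and all groups overlapped. The well numbered 1 was the highest in each group, at 4549.7 in C4BP, 4583 in C4BPD, 4495 in IAPP and 4582 in DMSO. Mlxip showed the same, and 8.27% of all genes had 1 number highest in all 4 groups. That share is above what numbers unrelated between groups would give, and the main fit takes no account of the number.

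Khk (probe set 17820752) was dim, at 7.70 on the log2 scale beside a median of 7.47 over all probe sets, and was not shown to be above background. Its intensities were 208, 207, 230.4, 211 and 229 in C4BP wells, 227, 219.9, 209.9, 204 and 214 in C4BPD wells, 197, 193, 213, 199 and 214 in IAPP wells, and 192, 189.99, 189.6, 215 and 199 in DMSO wells. DMSO 4 lay within the ranges of the C4BP and C4BPD wells, and the remaining DMSO wells were below all C4BP and C4BPD wells. The difference was 0.14 in C4BP vs DMSO (95% interval 0.04 to 0.24, adjusted p = 0.0955) and 0.13 in C4BPD vs DMSO (0.03 to 0.22, adjusted p = 0.243). Without DMSO 4 the adjusted p in C4BP vs DMSO was 0.0382, and with dim genes left out it was 0.0473.

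Of the factors that bind DNA at these genes, neither measured one passed in a pairwise comparison. Mlx (probe set 17651181), the shared dimer partner, had intensities of 2567, 2823, 2900.4, 3053 and 2797 in C4BP wells, 2718, 2606, 2797, 2820.04 and 2815 in C4BPD wells, 2770.1, 2838, 2946, 3089 and 3036 in IAPP wells, and 2857, 2931, 3045, 3037 and 3129 in DMSO wells. All 5 C4BPD wells were below all 5 DMSO wells, as for 1.83% of all genes in C4BPD vs DMSO. The difference there was -0.12 (95% interval -0.22 to -0.03) with an adjusted p of 0.222, and 0.0322 with the title number as a block. In limma's test 0 of the 7 genes passed in C4BPD vs DMSO, against 1.93% of all genes, and 2 (Mlx and Khk) had an unadjusted p under 0.05, as did 12.2% of all genes. Mlxip (probe set 17677785), which encodes MondoA, averaged 1142 ± 75.5 in C4BP, 1086.5 ± 58.8 in C4BPD, 1135 ± 46.4 in IAPP and 1098 ± 64.3 in DMSO wells (SD, n = 5 each). Its differences ran from -0.06 in C4BPD vs IAPP (-0.17 to 0.04) to 0.07 in C4BP vs C4BPD (-0.04 to 0.18), with overlap throughout.

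**Figure D4:**
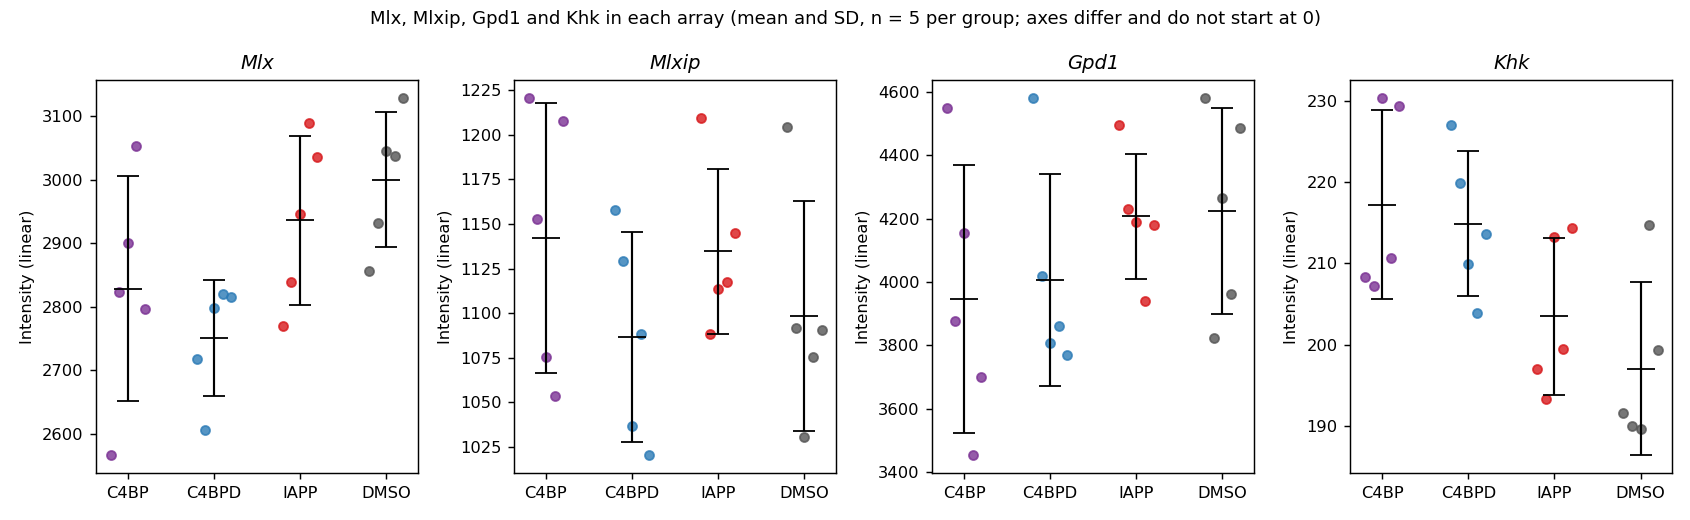
Intensity of Mlx, Mlxip, Gpd1 and Khk on each array by title group, with points for arrays, the long bar for the mean and whiskers for the SD (n = 5), each panel on its own axis. The groups overlap in every pair except Mlx in C4BPD and DMSO wells, and the first point of each group is the highest for Mlxip and Gpd1.

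Whether the response to IAPP depends on C4BP was tested as an interaction, the C4BP vs C4BPD difference less the IAPP vs DMSO difference. In limma's test 0 of the 7 genes passed, against 0.0495% of all genes, and 1 had an unadjusted p under 0.05, as did 3.79% of all genes. That gene was Txnip, at -0.30 ± 0.12 on the log2 scale (SE; 95% interval -0.55 to -0.04; unadjusted p = 0.0233, adjusted p = 0.9996). Arrdc4 was at -0.08 (-0.21 to 0.06) and Pklr at -0.04 (-0.19 to 0.11).

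As a group, the 7 genes had a median log2 difference of -0.10 in C4BP vs DMSO, beside 0.00 over all genes. The medians of the 7 were 0.00 in IAPP vs DMSO, -0.04 in C4BPD vs DMSO, -0.06 in C4BP vs IAPP, -0.02 in C4BP vs C4BPD and -0.06 in C4BPD vs IAPP. Over all genes the median stayed between -0.01 and 0.01 in these comparisons. At an unadjusted p under 0.05 in limma's test, 2 of the 7 stood in IAPP vs DMSO, 4 in C4BP vs DMSO, 1 in C4BP vs IAPP, 3 in C4BP vs C4BPD and 2 in C4BPD vs IAPP. The shares of all genes at that level were 12.3%, 16.2%, 7.93%, 13.7% and 18.2%. Within groups, Txnip had a residual SD of 0.14 on the log2 scale, larger than that of 80.0% of genes, whereas that of Arrdc4 was 0.07, larger than 17.6%.

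Other ChREBP targets, of which 22 of 30 listed genes were measured, counted 1 higher, 5 lower and 16 not passing in IAPP vs DMSO, with a median of -0.05 on the log2 scale. Of all genes, 1.41% were higher and 1.97% lower there. Srebf1, a transcription factor of lipid synthesis, fell by 0.31, the desaturase Scd2 fell by 0.30, and Mid1ip1, a regulator of acetyl-CoA carboxylase, fell by 0.18. Cyp2u1, a cytochrome P450, rose by 0.19. The other calls there were Acaca and Slc2a2, lost in 7 and 10 of the 10 fits that left out 1 array of these groups. In C4BP vs DMSO 0 were higher, 6 lower and 16 did not pass (median -0.04), against 2.72% higher and 3.23% lower of all genes, and of these 6 Mid1ip1 was lost in 4 and Acaca in 2 of 10 fits without 1 array. Scd2 fell by 0.44, the helix-loop-helix repressor Bhlhe40 fell by 0.32 and Srebf1 fell by 0.31 there. In C4BP vs C4BPD the counts were 1 higher and 4 lower of 22 (median -0.03), against 0.754% higher and 1.62% lower of all genes. Of 10 fits without 1 array, Acly was lost in 8, Slc2a2 in 7, the higher one, Cyp2u1, in 7 and Scd2 in 1. Gpd2, the mitochondrial partner of Gpd1 in the glycerol phosphate shuttle, fell by 0.25 and was lost in 0. In C4BPD vs IAPP 5 were higher and 1 lower, Cyp2u1, against 3.64% higher and 1.82% lower of all genes. Higher were among others Gpd2 (0.23), Tkfc, a kinase that follows Khk in fructose breakdown (0.22), and the citrate-cleaving enzyme Acly (0.15). Acaca, also higher there, was lost in 9 of 10 fits without 1 array. C4BPD vs DMSO had 1 higher and 1 lower of 22, against 1.17% higher and 0.765% lower of all genes. The higher one, Tkfc, was lost in 10 of 10 fits without 1 array (adjusted p up to 0.132) and the lower one, Bhlhe40, in 2. In C4BP vs IAPP 0 passed in limma's test, where 0.374% of all genes passed as higher and 0.231% as lower. At an unadjusted p under 0.05 there were 3 of 22, beside 7.93% of all genes. The list holds Slc2a2, also a beta-cell marker above, and Srebf1, itself a transcription factor of lipid synthesis. Which factor acts on the listed genes in these wells was not tested.

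The thioredoxin system (thioredoxins, their reductases, peroxiredoxins and related proteins) had 2 of 18 measured genes higher and 0 lower in IAPP vs DMSO, against 1.41% and 1.97% of all genes. It had 3 higher and 1 lower in C4BP vs DMSO, against 2.72% and 3.23%. The lower one, Glrx, fell by 0.27 (limma, adjusted p = 0.0168), a call lost in 2 of 10 fits without 1 array. Srxn1, which repairs oxidized peroxiredoxins, rose by 0.30 in IAPP vs DMSO (limma, adjusted p = 0.000174) and by 0.36 in C4BP vs DMSO (9.83e-06). The thioredoxin reductases Txnrd1 and Txnrd3 rose by 0.27 and 0.33 in C4BP vs DMSO. Thioredoxin itself, Txn1, did not pass, at 0.03 in IAPP vs DMSO and 0.02 in C4BP vs DMSO. The list medians were 0.01 and 0.02. In C4BPD vs IAPP 0 were higher and 2 lower, against 3.64% and 1.82% of all genes. These were Srxn1 (fell by 0.27) and the mitochondrial reductase Txnrd2 (fell by 0.17). In C4BP vs C4BPD 2 were higher, Srxn1 and Txnrd1, and 0 lower, against 0.754% and 1.62% of all genes. The call of Txnrd1 there was lost in 8 of 10 fits without 1 array. In C4BPD vs DMSO 0 of 18 passed in limma's test, against 1.93% of all genes. In C4BP vs IAPP 0 of 18 passed, against 0.374% higher and 0.231% lower of all genes. At an unadjusted p under 0.05 there were 6 and 5 of 18, beside 12.2% and 7.93% of all genes.

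Among the other arrestins, 0 of 6 passed in limma's test in IAPP vs DMSO, C4BP vs DMSO, C4BP vs IAPP and C4BP vs C4BPD. Of all genes, 1.41%, 2.72%, 0.374% and 0.754% passed there as higher and 1.97%, 3.23%, 0.231% and 1.62% as lower. At an unadjusted p under 0.05 there were 1, 1, 1 and 2 of the 6. The shares of all genes at that level were 12.3%, 16.2%, 7.93% and 13.7%. In C4BPD vs DMSO 1 passed, Arrb1, at -0.18, against 0.765% of all genes that passed as lower, and that call was lost in 8 of 10 fits without 1 array (adjusted p up to 0.124). In C4BPD vs IAPP the beta-arrestin Arrb1 fell by 0.23. Arrdc3, the alpha-arrestin relative of Arrdc4, was at 0.26 there (adjusted p = 0.0333), a call lost without IAPP 1 or 2 or C4BPD 2, 3, 4 or 5 (adjusted p up to 0.105). Arrdc1 and Arrdc2 passed in no comparison.

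Among 18 genes known as regulators or effectors of Txnip, Vdr fell by 0.78 in IAPP vs DMSO (limma, adjusted p = 5.4e-07), fell by 0.73 in C4BP vs DMSO and fell by 0.91 in C4BP vs C4BPD. In C4BPD vs IAPP it rose by 0.97. Vdr encodes the vitamin D receptor, and TXNIP was first found in human leukaemia cells as a gene raised by vitamin D. Prkaa2, a catalytic subunit of the energy sensor AMPK, rose by 0.29 in IAPP vs DMSO. Foxo3, a stress-responsive transcription factor, rose by 0.25 in C4BP vs DMSO. In all, 1 gene of the 18 was higher and 2 lower in IAPP vs DMSO, against 1.41% and 1.97% of all genes, and 2 were higher and 2 lower in C4BP vs DMSO, against 2.72% and 3.23%. In C4BPD vs IAPP 2 were higher and 1 lower, against 3.64% and 1.82%, and in C4BP vs C4BPD 0 were higher and 1 lower, against 0.754% and 1.62%. The list medians were -0.05 in IAPP vs DMSO and -0.06 in C4BP vs DMSO. The list holds Mafa, given above as a beta-cell marker, whose calls in IAPP vs DMSO and C4BP vs DMSO were each lost in 6 of 10 fits without 1 array. The inflammasome sensor Nlrp3, which TXNIP can bind, did not pass, at -0.13 in IAPP vs DMSO and -0.07 in C4BP vs DMSO.

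Genes of glucose entry and phosphorylation had 10 of 14 measured. Slc2a4, a glucose transporter, fell by 0.32 in IAPP vs DMSO and fell by 0.25 in C4BP vs DMSO, and rose by 0.27 in C4BPD vs IAPP. Its mean intensity was 279.7 in C4BP, 322 in C4BPD, 266 in IAPP and 332 in DMSO wells. Of the 10, 1 was higher and 1 lower in IAPP vs DMSO, against 1.41% and 1.97% of all genes, and 0 higher and 4 lower in C4BP vs DMSO, against 2.72% and 3.23%. The higher one in IAPP vs DMSO, Pfkp, was lost in 9 of 10 fits without 1 array (adjusted p up to 0.143). In C4BP vs DMSO Slc2a1 and Aldoc were each lost in 1 of 10. In C4BPD vs DMSO 0 were higher and 2 lower, against 1.17% and 0.765%, and these calls, Slc2a1 and Pfkl, were lost in 9 and 4 of 10 fits without 1 array. In C4BP vs C4BPD 1 was higher and 0 lower, against 0.754% and 1.62%, and in C4BPD vs IAPP 2 were higher and 2 lower, against 3.64% and 1.82%. Without 1 array, the call of Aldoa in C4BP vs C4BPD was lost in 4 of 10 fits. Those of Pfkm and Pfkp in C4BPD vs IAPP were lost in 8 and 6 of 10. In the MYC, MAX and MLX network, 9 of 10 measured, Myc fell by 0.25 in C4BPD vs IAPP. The network had 1 gene of 9 higher in IAPP vs DMSO (against 1.41% of all genes) and 1 lower in C4BP vs C4BPD (1.62%). These calls, Myc and Mxd4, were each lost in 5 of 10 fits without 1 array and in a fit of the 2 groups alone. It had 1 lower in C4BPD vs IAPP (1.82%) and 1 lower in C4BP vs DMSO (3.23%). In C4BP vs DMSO Mxd4, a MAX partner, fell by 0.22, a call lost in a fit of the 2 groups alone. Of the 4 measured genes of the glycerol phosphate and fructose paths, Sord, sorbitol dehydrogenase, rose by 0.16 in C4BP vs DMSO (against 2.72% of all genes that passed as higher), likewise lost in that fit. In the interaction 0 genes of the 7 lists passed in limma's test, against 0.0495% of all genes. Of the 22 ChREBP targets, 2 had an unadjusted p under 0.05 there, as did 3.79% of all genes.

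**Figure D5:**
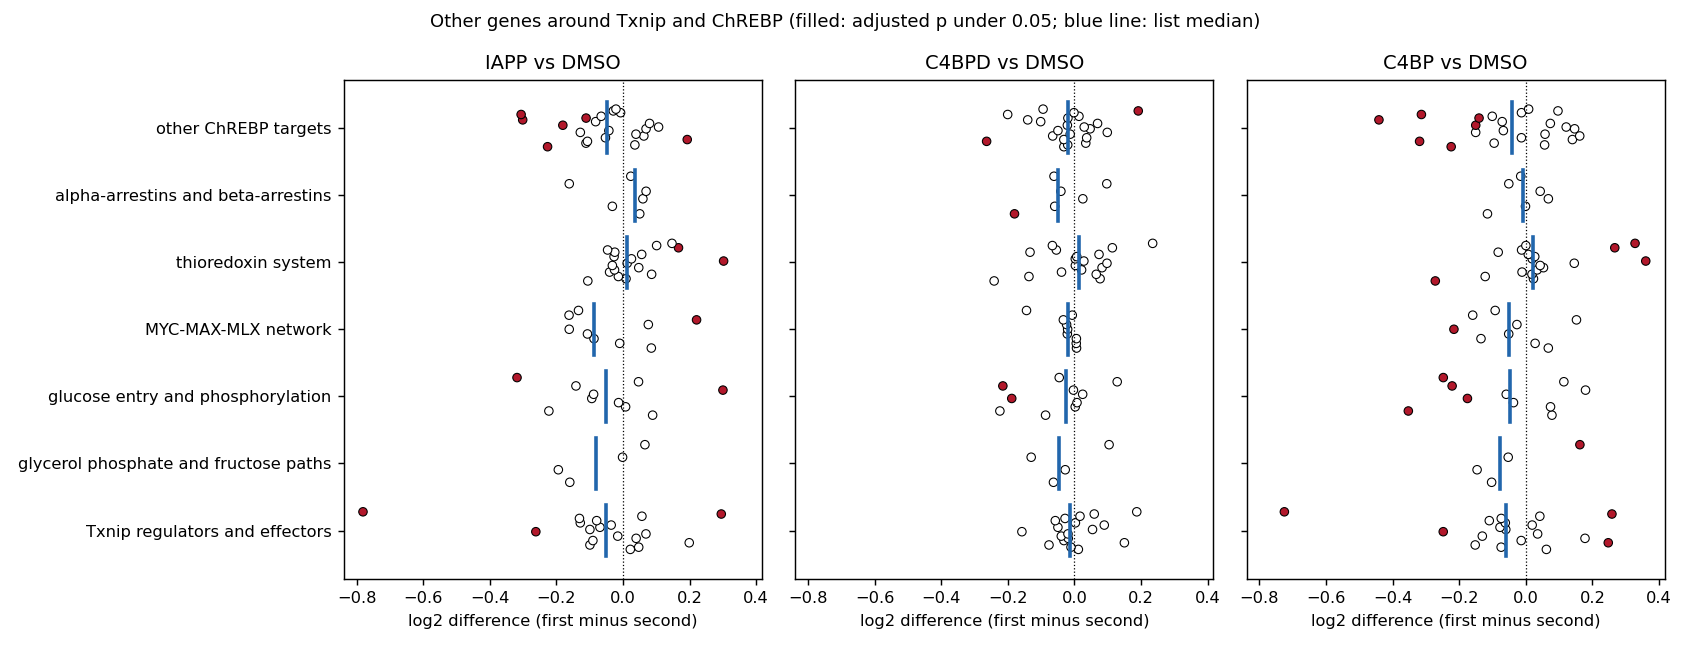
Log2 differences from DMSO of the genes in 7 lists around Txnip and ChREBP, with 1 point per gene, filled where the adjusted p was under 0.05, and a blue line at each list's median. Most points lie near 0, and the farthest is Vdr, at -0.78 in IAPP vs DMSO and -0.73 in C4BP vs DMSO.

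The patterns most like those of the arrestins were sought by Pearson correlation of log2 values over the 20 arrays, among 11174 genes brighter than the median probe set. For Txnip these were Trmt9b (r = 0.86), Il17rb (0.85), Prok2 (0.84), Mical3 (0.81) and Spint1 (0.78). For Arrdc4 they were F3 (r = 0.91), Mageh1, Dcx and Cyp4f1 (0.90 each) and Tent5a (0.90). Once each group's mean was removed, r was 0.57 (Mical3) to 0.83 (Il17rb) for the 5 like Txnip. For those like Arrdc4 it was 0.44 for F3, 0.48 for Dcx, 0.41 for Cyp4f1, 0.52 for Tent5a and 0.73 for Mageh1. F3 averaged 1766 in C4BP, 2888 in C4BPD, 1848 in IAPP and 2859.8 in DMSO wells, the same order of low and high sets as Arrdc4. Arrdc4 and Pklr had r = 0.74 (Spearman's rho 0.76), and 0.25 once each group's mean was removed. Txnip and Arrdc4 had r = 0.12 (rho 0.12), and 0.01 once each group's mean was removed. The arrays fall into groups and share replicate numbers, so these values describe likeness and carry no test.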

How the data were processed

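Total RNA of INS-1 wells was measured on 20 arrays. The deposited values are intensities on a linear scale, 1 per probe set and array. Per the submitters' processing notes they were made with Affymetrix Expression Console. No version or normalization method is given in the sources used here. The linear scale was read from the values, which run from 4.73 to 18574. Of 36685 probe sets, 190 controls were left out of gene tests. GEO's platform annotation gives 1 gene symbol to 18511 probe sets, more than 1 to 575 and none to 17599, and the brightest single-symbol probe set stood for each gene.

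Intensities were turned into log2 values without other scaling or filters. limma 3.58.1 (R 4.3.3, functions lmFit and eBayes) then fitted the means of the 4 title groups over the 20 arrays, leaving 16 residual degrees of freedom, with two-sided tests adjusted by Benjamini-Hochberg over 18166 genes and a threshold of 0.05. Figures were drawn with matplotlib 3.10.9. Changes of a gene are on the log2 scale unless a percent is given, and ± is the SE for a difference and the SD for a level.

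Alternatives were median centring, quantile normalization, a fit of the compared groups alone, dim genes left out (mean under 7.47 on the log2 scale), the mean of a gene's probe sets, the title number as a block, each array left out, and groups from the treatment field. In C4BPD vs IAPP the 5 same-numbered pairs had correlations of deviations across genes of 0.152 to 0.305, so the block is given there. The lowest pair in the other comparisons was at -0.109 to 0.012. The median over the pairs was positive in every comparison, from 0.0945 in IAPP vs DMSO to 0.318 in C4BP vs IAPP. A shared effect of the title number was not tested.

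The genes, the lists around them and their tests were chosen with earlier results of these data known. The text names the 7 genes, from each list genes past the threshold (up to 4 of smallest p per comparison, of which mainly those whose calls held under the alternatives are printed) and the 5 genes most like Txnip and Arrdc4. Txn1, Nlrp3, Arrdc1, Arrdc2, Arrdc3 and the marker genes are given beside them for their roles. Motif spellings were settled after the promoters were read.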

Additional observations from a re-analysis of the deposited data

Results flagged for a closer look

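In 28 combinations of gene and group, a lone well stood apart from the other 4 in 2, by a gap above 0.71 of the group's range, and chance alone gives about 1 in 20. Txnip in C4BPD replicate 3 was 2545, beside 3041 in the next well. Without that well the Txnip difference in C4BP vs C4BPD was -0.26 and did not pass (limma, adjusted p = 0.151). Arrdc4 in C4BPD replicate 2 was 3711, beside 3403 in the next well, and the Arrdc4 calls in C4BP vs C4BPD and C4BPD vs IAPP held without it.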

How the results depend on the processing

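The Arrdc4 calls in 4 comparisons and the Pklr call in C4BP vs DMSO held under each alternative run on the title groups. Of the 7 genes, the number that passed in C4BP vs C4BPD was 1 with centred arrays and 1 with the 2 groups alone, in place of 2. With quantile normalization it was 0 in C4BP vs IAPP, in place of 1, with 1 gene at an unadjusted p under 0.05 in limma's test. Leaving out dim genes, which cuts the genes tested to 11175, gave 2 in IAPP vs DMSO and 4 in C4BP vs DMSO. With the replicate block the number was 2 in IAPP vs DMSO (Arrdc4 and Pklr), 1 in C4BPD vs DMSO (Mlx) and 3 in C4BP vs DMSO (with Txnip). Whether Pklr, Mlx and Txnip passed in these comparisons thus depended on leaving the block out of the main fit. Groups from the treatment field gave 0 in every comparison and in the F test, with 1 or 0 genes at an unadjusted p under 0.05 in each, and 0 of all genes passed. The cause was not tested.

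Leaving out 1 array gave 1 to 2 in C4BP vs C4BPD, 2 to 3 in C4BP vs DMSO, 0 to 1 in C4BP vs IAPP and 2 to 3 in the F test. Differences that crossed 0 were all uncalled: Arrdc4 C4BP vs IAPP -0.0340 to 0.0079, Gpd1 C4BP vs C4BPD -0.0776 to 0.0245, Gpd1 IAPP vs DMSO -0.0388 to 0.0265 (0.000572 with quantile normalization), Gpd1 interaction -0.0739 to 0.0282, Khk C4BP vs C4BPD -0.0069 to 0.0350, Mlxip C4BP vs IAPP -0.0169 to 0.0362, Mlxip C4BPD vs DMSO -0.0390 to 0.0182 and Mlxip interaction -0.0104 to 0.0518.

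Over all genes, the count in C4BPD vs DMSO was 223 with centred arrays, 208 with the 2 groups alone and 797 with the replicate block, in place of 351. In C4BP vs IAPP it was 70, 33 and 352 in the same settings and 202 without dim genes, in place of 110. The 2 groups alone gave 663 in C4BP vs DMSO, in place of 1082, and 223 in C4BP vs C4BPD, in place of 431. The block gave 1133 in IAPP vs DMSO, in place of 614, 1884 in C4BP vs DMSO, 958 in C4BP vs C4BPD and 18 in the interaction, in place of 9. Without 1 array the counts over all genes reached down to 58 in C4BP vs IAPP (without IAPP 3), 217 in C4BPD vs DMSO (without C4BPD 5), 658 in C4BPD vs IAPP (without IAPP 2), 405 in IAPP vs DMSO (without IAPP 4) and 3 in the interaction (without C4BPD 5). Of 67 calls of list genes, an alternative added after the data were seen, 32 held in every fit and 0 reversed. Genes near the median intensity, such as Khk, are limited by signal over background, which the files do not give.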
